A study of Mus musculus with 16 samples.

Results

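Of the 9 conventional T cell (Tconv) libraries from mouse visceral adipose tissue (VAT), 3 held a high level of Il5 mRNA and 6 a low one. The 3 Il5-high libraries were chosen by their Il5 value, which was above 200, and the 6 Il5-low libraries lay below it. They are 9 of the 16 libraries of the study, and the other 7 are from regulatory T cells (Treg) of the same tissue. Because the division was selected on a measured value in these same libraries, what follows describes it without a test, and no p-value is attached to the difference between Il5-high and Il5-low libraries. Across the other 12704 genes with a value of 10 or more in at least 3 Tconv libraries, the description asks which ones lay apart in the same way as Il5.

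The study concerned mice in which Hpgd was deleted in Treg, the Foxp3-expressing T cells that restrain other immune cells. Hpgd encodes hydroxyprostaglandin dehydrogenase, which inactivates prostaglandin E2. The animals were of the C57BL/6JRcc strain and 12 weeks old, and cells were sorted from digested VAT of perfused animals. The groups were Tconv WT (4 libraries), Tconv KO (5), Treg WT (3) and Treg KO (4). The line given for all 16 libraries is the same one, Hpgd fl with Foxp3-YFP-Cre, so genotype rests on the sample titles, and whether WT animals carry the Cre or the floxed allele is not given. The Foxp3-driven Cre acts in Treg, so in the Tconv KO libraries the profiled cells come from animals with the deletion but are not themselves its intended target. Which markers were used for the sort is not given in the sources used here. According to the series, 5 animals had the deletion and 4 were WT, but nothing ties a library to an animal, so p-values measure the spread between libraries, which may be technical. Hpgd itself had no reads in 8 of 9 Tconv libraries and a value of 6.20 in Tconv KO 3. In Treg it read 73.1, 56.0 and 4.31 in WT 1 to 3 and 3.41, 2.54, 2.42 and 1 in KO 1 to 4, so Treg WT 3 was close to the KO libraries.

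Interleukin 5 is the cytokine that sustains eosinophils. It is made by type 2 helper T cells and by type 2 innate lymphoid cells, which use the transcription factor GATA3 and respond to the alarmin interleukin 33 through its receptor ST2, the product of Il1rl1. In adipose tissue, Treg carry ST2 as well and depend on PPARγ, the lipid-sensing nuclear receptor encoded by Pparg. A gene program shared between fat Treg and type 2 cells is therefore known background for this tissue.

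Each value is a gene's reads over the scaling factor of its library, with 1 added. A gene without reads therefore has the value 1, and levels of different genes are not scaled for gene length. Il5 read 599.7, 425.7 and 940.4 in the Il5-high libraries, which were Tconv WT 1, Tconv WT 3 and Tconv KO 3. These rested on 579, 422 and 7412 reads. In the Il5-low libraries it read 1 in Tconv WT 2, 2.13 in Tconv WT 4, and 46.0, 52.4, 38.5 and 1 in Tconv KO 1, 2, 4 and 5. The nearest library above the threshold was thus Tconv WT 3 at 425.7 and the nearest below it was Tconv KO 2 at 52.4, with none between them. Each genotype holds both kinds: 2 of 4 WT and 1 of 5 KO libraries were Il5-high. Among the low ones, WT 2 and KO 5 had no Il5 read and WT 4 had 1, whereas KO 1, KO 2 and KO 4 had 37, 66 and 47 reads.

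All 3 Il5-high libraries stood apart in something else too. Tconv WT 1 carried neutrophil transcripts, with S100a8, a granulocyte alarmin, at 10195 against at most 31.5 in every other Tconv library. Tconv WT 3 carried haemoglobin transcripts, with Hba-a2 at 112366 against at most 878.8 elsewhere in Tconv. Tconv KO 3 was sequenced to 56.7 M reads, whereas the other 8 Tconv libraries had 3.39 to 9.26 M. The value of 3 reads, taken as the floor, ran from 1.38 in Tconv KO 3 to 7.09 in Tconv WT 2. Values with each of the 3 libraries left out are given where they change what is said. The 15 T cell identity genes were alike in both sets: none lay apart, their differences ran from -0.23 to 0.10 on the log2 scale, and their summed value was 70902 to 73174 in the Il5-high and 69450 to 87712 in the Il5-low libraries. In bulk libraries such as these, fewer cells of a type and less RNA per cell cannot be told apart.

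Sequences next to the start sites of the leading pair of genes are shown because GATA3 is a factor that type 2 cells and fat Treg share. They are RefSeq start-site windows of build GRCm38.p6, 250 bases before to 50 after the start, printed 5′ to 3′ with each GATA or its reverse complement TATC in capitals. Il5 has a window at chr11:53720544-53720843 on the plus strand. Il1rl1 has 2 windows, at chr1:40429320-40429619 and chr1:40439379-40439678, both on the plus strand.
Il5: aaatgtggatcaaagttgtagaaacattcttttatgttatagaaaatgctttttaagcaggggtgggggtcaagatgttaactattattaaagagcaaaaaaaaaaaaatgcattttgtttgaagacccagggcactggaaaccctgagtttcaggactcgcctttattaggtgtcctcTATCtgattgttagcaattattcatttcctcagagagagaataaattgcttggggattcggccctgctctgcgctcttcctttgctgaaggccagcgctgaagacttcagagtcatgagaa
Il1rl1 window 1: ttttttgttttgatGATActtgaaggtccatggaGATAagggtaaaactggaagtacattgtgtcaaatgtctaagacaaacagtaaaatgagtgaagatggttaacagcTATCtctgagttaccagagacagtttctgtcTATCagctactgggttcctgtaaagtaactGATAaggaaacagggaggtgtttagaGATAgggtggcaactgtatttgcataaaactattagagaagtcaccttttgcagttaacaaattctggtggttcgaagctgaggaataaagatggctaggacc
Il1rl1 window 2: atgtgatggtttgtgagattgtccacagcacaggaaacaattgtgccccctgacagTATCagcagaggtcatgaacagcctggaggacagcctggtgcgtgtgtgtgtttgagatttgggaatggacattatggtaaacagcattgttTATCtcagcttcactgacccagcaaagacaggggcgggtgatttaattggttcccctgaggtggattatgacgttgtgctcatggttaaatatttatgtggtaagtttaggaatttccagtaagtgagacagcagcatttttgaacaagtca
The Il5 window holds 1 match, Il1rl1 window 1 holds 6 and window 2 holds 2. Of 32851 such windows over all genes, 57.9% hold at least 1 match, 28.7% at least 2 and 0.645% at least 6. A match of 4 letters is a description of the window and not a binding site. No RefSeq window for Il13 or Pparg was matched.

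A gene was called apart when every library of one set lay above every library of the other and the mean of log2(value + 1) differed by at least 1, which is 2-fold. By this rule 172 of the 12704 genes were higher in the Il5-high libraries (1.35%) and 133 were lower (1.05%). Each of the 172 had a value of at least 10 in all 3 Il5-high libraries, so those libraries alone could bring it past the filter. Without the 2-fold minimum the counts were 318 and 226, and with a 4-fold minimum 74 and 68. Leaving out 1 library gave 199 to 369 higher and 147 to 439 lower genes. The counts were 369 and 396 without Tconv WT 1, 354 and 276 without Tconv WT 3, and 348 and 439 without Tconv KO 3, and 201 were lower without Tconv WT 4. The median difference over all 12704 genes was -0.03. Il5 shares exon sequence with Gm12214, Csf2 with Gm12223 and Gata3 with 9230102O04Rik, and since the strand was not marked their reads cannot be told from those of these neighbours.

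**Figure D1:**
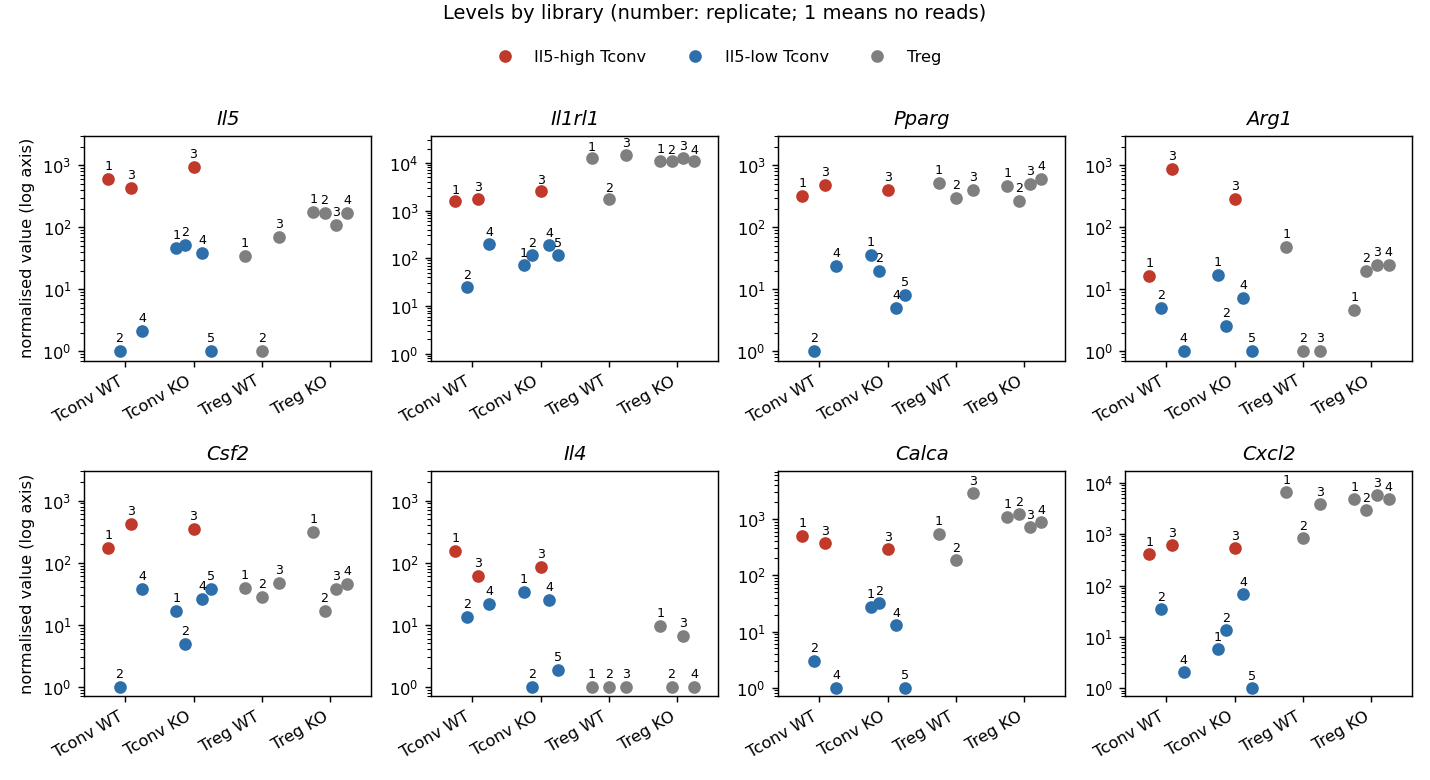
Normalised values (log axis; 1 means no reads) of 8 genes in each library, by group, with the replicate number above each point; red, the 3 Il5-high Tconv libraries, blue, the 6 Il5-low, grey, Treg. For Il1rl1, Pparg, Csf2, Il4, Calca and Cxcl2 the 3 red points lie above all blue points, and for Arg1 Tconv WT 1 lies among the blue points.

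The other 3 genes that mark the Il5-high set split in the same direction, 2 of them without overlap. Il1rl1 (chromosome 1, 40429570 to 40465415, plus strand) read 1566, 1746 and 2548 in Tconv WT 1, WT 3 and KO 3. In the Il5-low libraries it read 25.4 and 201.4 in WT 2 and WT 4 and 72.8, 116.3, 190.1 and 116.5 in KO 1, 2, 4 and 5. The sets did not overlap, and the log2 difference was 4.25, being 4.50 within WT and 4.43 within KO. Pparg (chromosome 6, 115360951 to 115490399, plus strand) read 316.4, 485.1 and 398.5 in the Il5-high libraries against 1 to 36.3, median 13.9, in the Il5-low, a log2 difference of 5.13. It was without a read in Tconv WT 2. Arg1, which encodes arginase 1, read 16.5, 861.5 and 286.0 in the Il5-high libraries against 1 to 16.8 in the Il5-low. Its mean log2 difference was 5.07, but Tconv WT 1 lay just under Tconv KO 1, so Arg1 marked only 2 of the 3 Il5-high libraries. All 4 genes were given as markers of this set, so their differences add no support to it.

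Among the cytokine genes, 8 of the listed type 2 and tissue cytokines other than Il5 passed the filter, 5 were apart and higher, none was lower, and the list's median log2 difference was 2.76. Il4, the cytokine that drives type 2 helper differentiation, read 152.0, 60.4 and 85.9 in the Il5-high libraries and 1 to 33.8, median 17.2, in the Il5-low. The sets did not overlap and the log2 difference was 3.10. Csf2, which encodes the myeloid growth factor GM-CSF, read 174.7, 416.6 and 353.8 against 1 to 37.4, a log2 difference of 4.38, again without overlap. Lif, an interleukin 6 family cytokine, read 79.6, 234.5 and 70.5 against 1 to 35.3, a log2 difference of 4.45. Areg, the epidermal growth factor receptor ligand of tissue repair, read 400.1, 494.1 and 891.7 against 35.9 to 128.6, a log2 difference of 2.90. Tnfsf11, which encodes RANKL, read 1085, 1518 and 1677 against 269.8 to 461.7, a log2 difference of 2.00. All 5 of these were thus higher in each Il5-high library of either genotype than in any Il5-low one.

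The remaining cytokine genes did not lie apart. Il6 read 44.4, 148.9 and 23.9 against 1 to 67.4. Il13, the cytokine usually made together with interleukin 5, was below the filter, at 11.3, 1 and 24.1 in the Il5-high libraries and at most 1.78 in the Il5-low. It was without a read in Tconv WT 3 in spite of that library's Il5. Il10 ran the other way without being apart, at 372.2, 286.8 and 463.6 against 169.9 to 888.0. Il9 had no read in any Tconv library.

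A peptide gene and a chemokine gene were among the 15 named for their large differences upward. Calca, which encodes calcitonin and calcitonin gene-related peptide, read 505.6, 375.4 and 289.1 in the Il5-high libraries. It read 1 to 32.2, median 7.998, in the Il5-low, with no read in Tconv WT 4 and KO 5. The sets did not overlap and the log2 difference was 5.62. Cxcl2, a neutrophil-attracting chemokine, read 403.2, 623.0 and 548.3 against 1 to 68.8, a log2 difference of 5.58. Tconv WT 1, the library with neutrophil transcripts, had the lowest Cxcl2 of the 3, and the source of the Cxcl2 reads was not tested.

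Of 15 alarmin and type 2 receptor genes that passed, 3 were apart and higher, none lower, with a median log2 difference of 0.88. Without Il1rl1, which marks the set, 2 of 14 were apart and higher and the median was 0.84. Besides Il1rl1 these were Il2ra and Ccr8. Il2ra, the high-affinity chain of the interleukin 2 receptor (CD25), read 588.3, 728.6 and 1299 against 18.03 to 86.3, a log2 difference of 4.07. Ccr8, a chemokine receptor of type 2 cells and tissue Treg, read 1256, 2108 and 1768 against 320.1 to 989.4, a log2 difference of 1.62. Il17rb, the receptor for interleukin 25, read 98.2, 26.2 and 92.9 against 1 to 33.8, so Tconv WT 3 fell inside the range of the low set. Crlf2, the receptor for the alarmin TSLP, was alike at 177.8, 145.9 and 137.6 against 76.4 to 232.4. Il4ra (log2 difference 0.88) and Il7r (0.38) fell short of the 2-fold minimum.

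Receptors for small mediators also appeared among the genes with the largest differences. Ptgir, the prostacyclin receptor, read 194.3, 333.1 and 222.8 against 1 to 49.0, a log2 difference of 4.27. Vipr2, a receptor for vasoactive intestinal peptide, read 74.4, 101.6 and 172.9 against 1 to 24.1, a log2 difference of 4.32. Ltb4r1, the leukotriene B4 receptor, was picked out after its values were seen, and read 1358, 1796 and 2308 against 99.9 to 294.0, a log2 difference of 3.54. None of these 3 genes overlapped between the sets. The enzyme genes of arginine and eicosanoid metabolism gave 1 gene apart among 6 that passed, and it was lower: Hpgds, the haematopoietic prostaglandin D synthase, at 15.5, 8.05 and 10.00 against 22.9 to 75.3, a log2 difference of -1.74.

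Among the transcription factor genes Pparg had the largest difference. Of 14 type 2 factors, Pparg and Gata3 were apart and higher and none was lower, and the median log2 difference was 0.34. Without Pparg, which marks the set, 1 of 13 was apart and higher and the median was 0.26. The list's summed value without Pparg did not overlap, at 41048 to 53322 in the Il5-high against 33270 to 39570 in the Il5-low libraries. Gata3 read 4051, 3874 and 5155 in the Il5-high libraries against 1794 to 2590 in the Il5-low, a log2 difference of 1.08, so it was present in all 9 Tconv libraries and about 2-fold higher in 3. Rora, a factor of innate lymphoid cells, read 4534, 7891 and 7388 against 2272 to 4162, without overlap. It missed the 2-fold minimum at a log2 difference of 0.96. Maf was alike at 1554, 1379 and 1259 against 1342 to 1678, and the sets overlapped for Batf at 1531, 1200 and 1032 against 1389 to 2722.

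Of 21 PPARγ and lipid genes that passed, 4 were apart and higher, none lower, and the list's median log2 difference was 0.08, with 10 of the 21 below 0. Without Pparg, which marks the set, 3 of 20 were apart and higher and the median was 0.04. Plin2, which coats lipid droplets, read 1561, 2467 and 1835 against 264.0 to 716.3, a log2 difference of 2.05. Dgat1, which completes triglyceride synthesis, read 3404, 6403 and 5413 against 1225 to 2515, a log2 difference of 1.46. Dgat2, with the same activity, read 49.6, 40.3 and 39.4 against 1 to 33.7, a log2 difference of 1.70. Pparg was the fourth. Hilpda, an inhibitor of lipolysis on lipid droplets chosen after its values were seen, read 3834, 5641 and 5219 against 678.0 to 1528, a log2 difference of 2.14. Fatty acid carriers showed no such split: Fabp5 read 233.6, 113.7 and 207.5 against 84.9 to 250.9, and Cd36 stayed at or under 10.3 in the Il5-high libraries. Hk2, the first enzyme of glycolysis, was likewise noticed afterwards, at 173.7, 474.0 and 520.4 against 29.4 to 114.1.

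**Figure D2:**
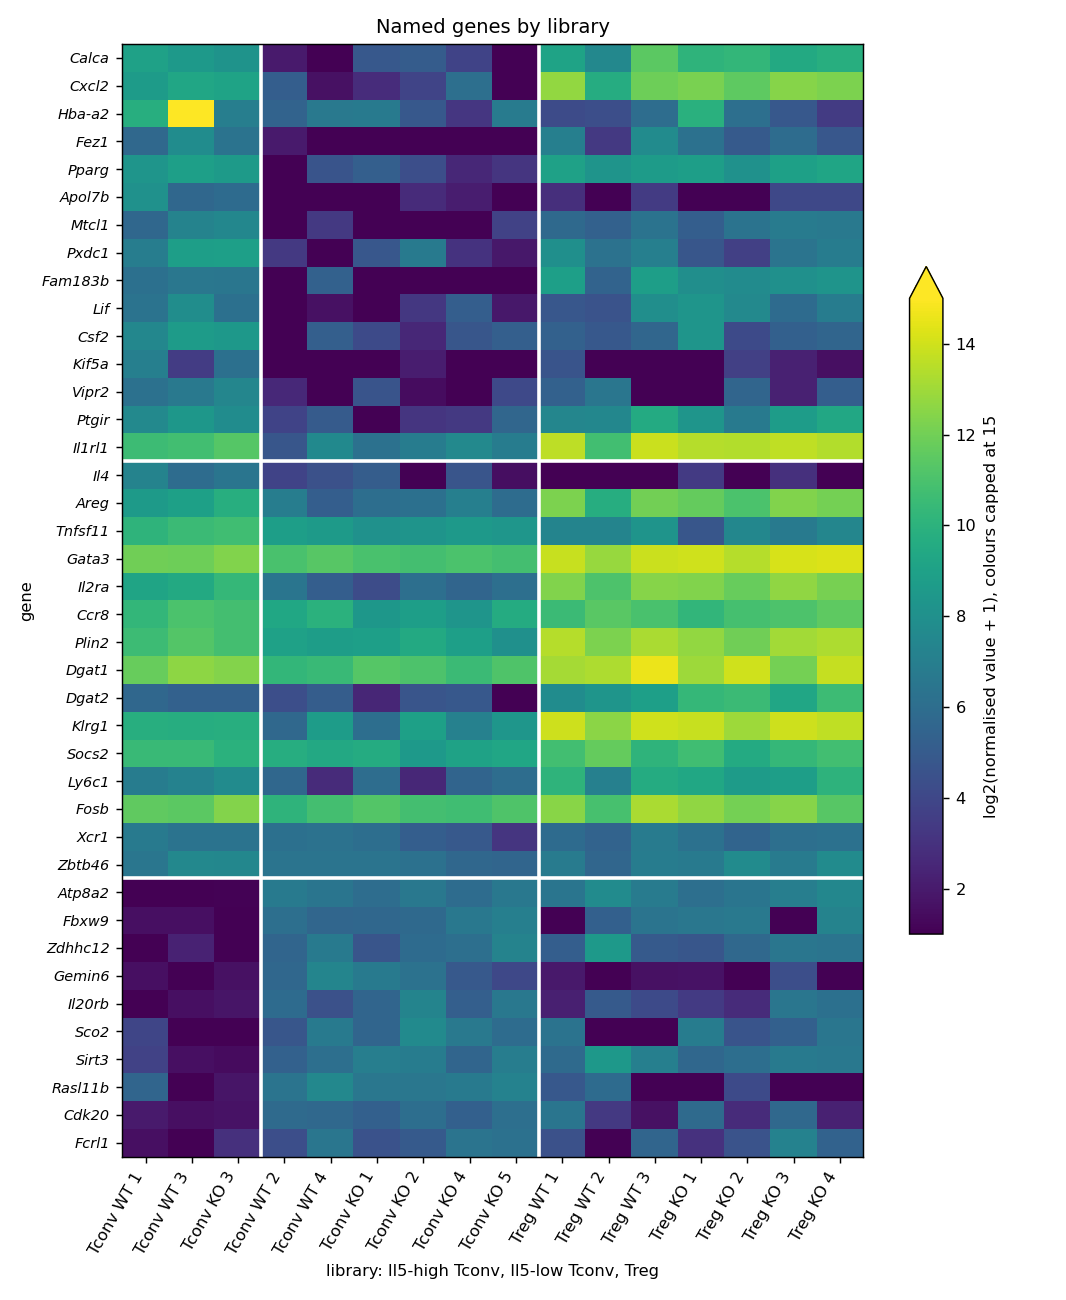
Colour gives log2(normalised value + 1), capped at 15, for named genes in the 3 Il5-high Tconv, 6 Il5-low Tconv and 7 Treg libraries; white lines separate the 15 largest differences upward, other higher list members and the 10 largest downward. In the top block each gene is darker in the Il5-low than in the Il5-high columns. In Treg, Cxcl2 and Il1rl1 are bright, Calca and Pparg lie nearer the middle of the scale, and Apol7b and Kif5a are dark.

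Some of the 15 largest differences upward concern genes with no place in the listed pathways. Fez1, a neuronal transport adaptor, read 51.7, 219.4 and 80.5 against 1 to 3.03. Mtcl1, a microtubule crosslinker, read 49.6, 152.0 and 177.9 against 1 to 12.6. Kif5a, a kinesin motor, read 131.3, 10.1 and 70.7 against 1 to 3.34. Their log2 differences of 5.45, 4.96 and 4.37 depend on the pseudocount and were 3.26, 3.17 and 2.43 with a pseudocount of 10. Apol7b (269.8, 49.3 and 57.5 against 1 to 5.68), Fam183b (70.3, 92.6 and 89.2 against 1 to 39.3) and Pxdc1 (123.0, 466.0 and 479.2 against 1 to 103.1) did not overlap either. Fez1, Kif5a and Apol7b stayed under 10 in every Il5-low library, so they passed the filter only through the Il5-high ones. Mtcl1, Fam183b, Pxdc1, Lif and Vipr2 reached 10 in fewer than 3 Il5-low libraries, so they too needed the Il5-high ones to pass. With a pseudocount of 10, Lif, Vipr2, Fam183b and Apol7b also had smaller log2 differences, of 2.93, 2.87, 2.73 and 3.11. Hba-a2 read 878.8, 112366 and 126.6 against 8.18 to 112.9, so it counted as apart by a narrow margin in Tconv KO 3, with its size set by Tconv WT 3. Its near-identical copy Hba-a1 overlapped between the sets, and reads of the 2 genes may be split between them.

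After Hba-a2, the 4 of the 172 higher genes with the highest mean level in Tconv were Nfkbia, Zfp36, Neurl3 and Lmna, an order taken after the values were seen. Nfkbia, the inhibitor of NF-κB, read 15291, 17081 and 26248 against 5207 to 8567, a log2 difference of 1.47. Zfp36, which destabilises cytokine mRNA, read 7431, 8212 and 10986 against 3125 to 5352, a log2 difference of 1.08. Neurl3 read 5236, 4416 and 5473 against 2018 to 3394. Lmna, which encodes lamins A and C, read 3085, 4159 and 6698 against 893.7 to 3084, so Tconv WT 1 and the highest Il5-low library were nearly equal. Atf3, a stress-response factor also picked afterwards, read 1504, 2067 and 3982 against 313.6 to 598.0, a log2 difference of 2.40. The list of antigen signal and immediate early genes gave 1 gene apart of 20, Fosb, at 3053, 2883 and 5441 against 1095 to 2434. The list's median log2 difference was 0.16, with 14 genes above 0 and 6 below. The list's summed value did not overlap, at 118056 to 129834 in the Il5-high against 87037 to 114475 in the Il5-low libraries.

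The 133 lower genes were weakly expressed. The median over them of the Il5-low median was 83.9, and 7 of them had no read in any Il5-high library. The 10 with the largest differences were Atp8a2, Fbxw9, Zdhhc12, Gemin6, Il20rb, Sco2, Sirt3, Rasl11b, Cdk20 and Fcrl1. Their log2 differences ran from -5.36 for Atp8a2 to -3.64 for Fcrl1, and from -3.08 to -2.09 with a pseudocount of 10. Atp8a2, a phospholipid flippase gene, read 1, 1 and 1.13 against 60.8 to 102.5. Il20rb, a receptor chain for interleukin 20 family cytokines, read 1, 2.01 and 2.52 against 21.3 to 159.2. Sirt3, the mitochondrial deacetylase, read 12.4, 2.01 and 1.63 against 39.6 to 126.3. Tconv WT 1 was the least low of the 3 for Sco2, Sirt3 and Rasl11b. Several of these genes, such as Atp8a2 with Nupl1 and Sco2 with Tymp, share exon sequence with a neighbour, and the strand was not marked, so their reads cannot be told from the neighbour's. Top2a, the topoisomerase of dividing cells, read 103.4, 143.9 and 71.3 against 148.5 to 337.9 and was the 1 gene of 16 proliferation genes that passed to be apart; their median log2 difference was -0.17.

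Lists of other T cell programs held no gene apart or 1. Over all 12704 genes, 1.35% were apart and higher and 1.05% lower, so counts this small do not set these lists off. The same holds for the antigen signal and proliferation lists, with 1 gene apart each. Of 22 Th1 and cytotoxic genes none was apart, and the median log2 difference was -0.47, with 15 below 0 and 7 above. The list's summed value did not overlap, at 38988 to 48182 in the Il5-high against 50592 to 106463 in the Il5-low libraries. Ccl4 read 789.9, 1109 and 2672 against 2528 to 8038, so only Tconv KO 3 was inside the range of the low set. Ifng read 3357, 2052 and 1988 against 2226 to 4307 and Ccl5 10566, 20112 and 16661 against 17379 to 57580. Interferon gamma and these chemokine genes were thus present in all 9 libraries, and the sets overlapped for each. Nkg7, a cytotoxic granule gene, had no overlap (6754, 7656 and 7949 against 8264 to 16489) but a log2 difference of only -0.62. Of 9 follicular helper genes and 12 interferon response genes none was apart, with medians of -0.55 and -0.18. Of 17 naive and resting T cell genes 1 was apart, Ly6c1, at 115.8, 146.9 and 217.5 against 4.90 to 63.0, and the median was 0.13. Of 2 Th17 genes that passed none was apart, with a median of -1.87. Il17a was read in a single library of the study, Tconv WT 3, at 172.1.

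**Figure D3:**
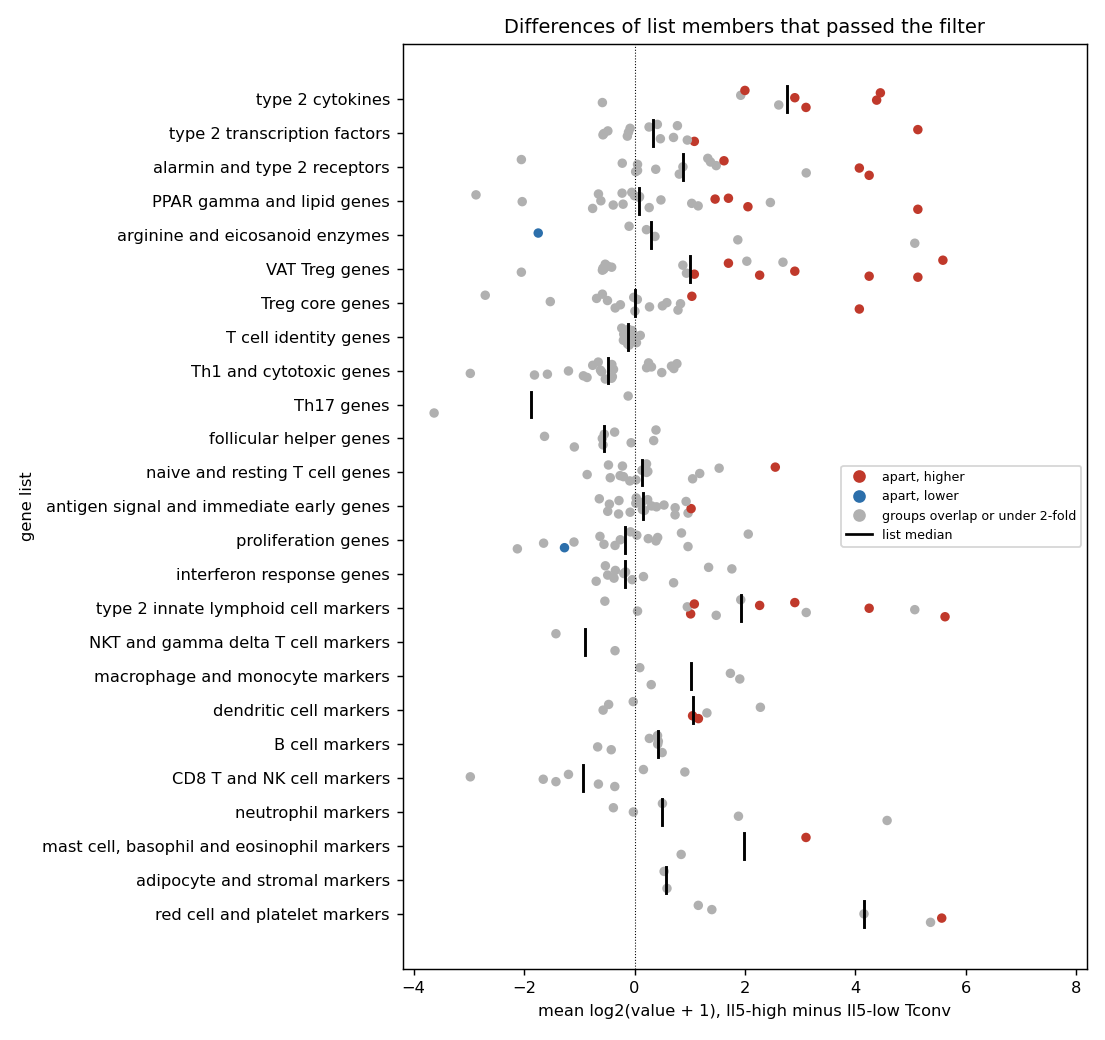
Each point is a gene of the list that passed the filter, placed by its log2 difference, Il5-high minus Il5-low; red, apart and higher, blue, apart and lower, grey, neither; the black bar is the list's median. The type 2 cytokine list has its median at 2.76 and the T cell identity list at -0.11.

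Markers of other cells were compared because a sorted bulk library can hold them. Of 17 Treg core genes that passed, 2 were apart and higher, Il2ra and Socs2, with a median log2 difference of 0.01. Foxp3, which defines Treg, read 20.7, 1 and 1.89 in the Il5-high libraries, 1 to 39.3 in the Il5-low and 279.5 to 616.3 in Treg. Cyp4f18, which was at 2425 to 14107 in Treg, read 3.07, 1 and 4.42 in the Il5-high libraries and at most 23.3 in the Il5-low. Ky and Slco2b1, of the VAT Treg list, had no read in any Il5-high library. Ctla4 read 2498, 2345 and 1911 against 2189 to 3782 in the Il5-low set and 6025 to 8699 in Treg. Each of Foxp3, Cyp4f18 and Ctla4 was thus highest, among Tconv, in an Il5-low library. Of 18 genes of the VAT Treg list that passed, which shares members with the lists above, 7 were apart and higher: Pparg, Il1rl1, Klrg1, Gata3, Areg, Cxcl2 and Dgat2. None was lower, and the median was 1.01. Without Pparg and Il1rl1, which mark the set, 5 of 16 were apart and higher and the median was 0.91.

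Markers of type 2 innate lymphoid cells were compared next. Of 13 genes of the innate lymphoid list that passed, 6 were apart and higher and none lower, the median log2 difference was 1.92, and the list's summed value was 13785 to 20058 in the Il5-high against 5312 to 7666 in the Il5-low libraries. The list holds Il5, Il1rl1 and Arg1, which mark the set. Without these, a choice made after the values were seen, 5 of 11 were apart and higher, the median was 1.48, and the sums were 11605 to 16287 against 5283 to 7433. The genes apart included Calca, Il1rl1, Areg, Klrg1 and Gata3. Klrg1, an inhibitory receptor, read 885.0, 836.3 and 882.1 against 51.7 to 499.7. Nmur1, the neuromedin U receptor, read 3.07, 12.1 and 1.89 in the Il5-high libraries, 1 in each Il5-low and up to 459.8 in Treg. Kit read 2.03, 1 and 7.34 and Ptgdr2 4.10, 1 and 4.55. T cell genes such as Cd3e (1841, 1847 and 2141 against 1674 to 2497) and Cd4 (6217, 4854 and 6373 against 5030 to 7949) were alike in both sets. The part of innate lymphoid cells in the difference was not tested.

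Neutrophil transcripts were high in 1 Il5-high library, the macrophage sums of the sets overlapped, and the red cell sum was higher in all 3 Il5-high libraries than in any Il5-low one. The neutrophil sum was 19351 in Tconv WT 1 and 896.7 to 1377 in the other 3 Tconv WT libraries. Lyz2, of macrophages and neutrophils, read 833.3, 4.02 and 1 in the Il5-high libraries, and Csf1r, of macrophages, 132.3, 1 and 1.13. The macrophage list's sum spanned 117.9 to 1481 in the Il5-high against 96.8 to 294.5 in the Il5-low libraries. All 4 of its genes that passed had differences above 0, and Mrc1 alone of 15 had no read in the Il5-high libraries. The red cell and platelet sum was 1618, 160144 and 206.7 in Tconv WT 1, WT 3 and KO 3, against 63.0 to 159.9 in the Il5-low libraries. Xcr1 and Zbtb46, from the dendritic cell list, were apart and higher by 1.16 and 1.05. Of the 7 genes of that list that passed, 4 had differences above 0 and 3 below. In the mast cell, basophil and eosinophil list the 1 gene apart of 2 that passed was Il4. Mcpt8, Tpsb2 and Epx had no reads in any Tconv library, so they could not tell the sets apart. That list's sum, Il4 included, was 74.5 to 257.5 against 1.78 to 46.2. None was apart of 4 macrophage, 5 neutrophil, 7 B cell, 8 CD8 T and NK cell, 2 NKT and gamma delta T cell and 2 adipocyte and stromal genes that passed. Their medians were 1.02, 0.51, 0.42, -0.92, -0.89 and 0.56. The medians were 1.05 for 7 dendritic cell genes, 1.97 for the mast cell list and 4.15 for 5 red cell and platelet genes, of which Hba-a2 was the 1 apart. The part of these transcripts in the difference was not tested.

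**Figure D4:**
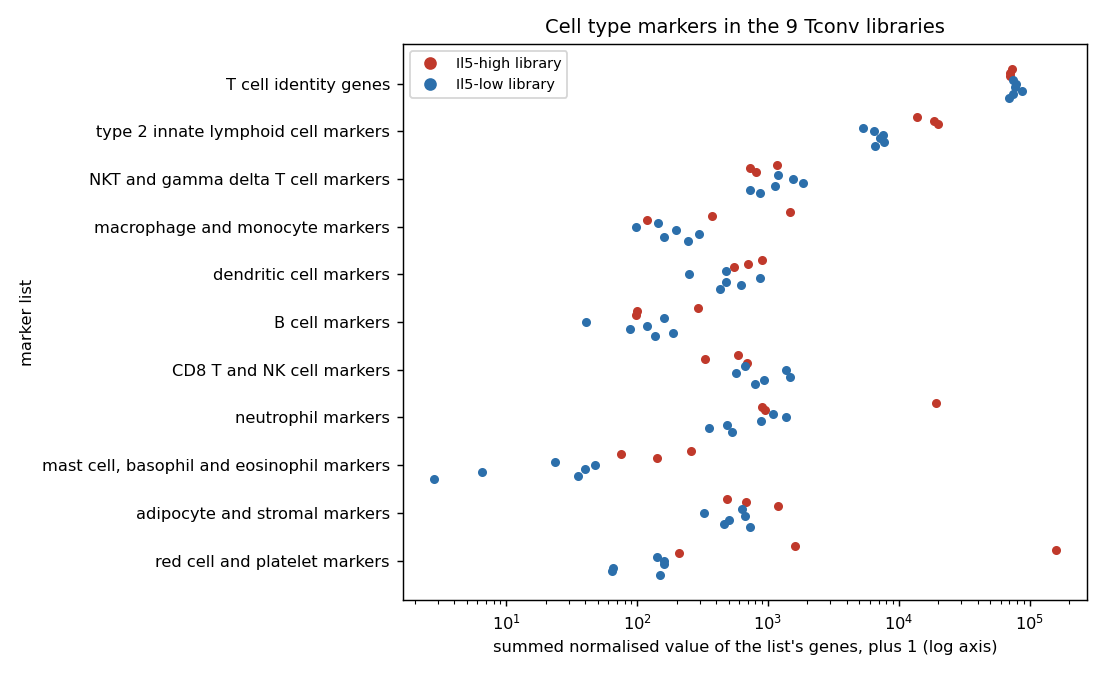
Summed normalised value (each gene's value above that of no reads, plus 1, log axis) of each cell type's marker list in the 9 Tconv libraries; red, Il5-high, blue, Il5-low. The neutrophil sum is high in 1 red library, the red cell sum of each red library is above every blue one, and T cell identity sums lie between 69450 and 87712.

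Treg libraries were not used in dividing the Tconv libraries, so the level of each gene there is a further measurement. In all 7 Treg libraries together, 63 of the 172 higher genes lay above the highest Il5-low library, compared with 405 of all 12704 genes (3.19%), and 1 of the 133 lower genes did. Of the 133 lower genes, 33 (24.8%) had all 7 Treg libraries above all 3 Il5-high ones, compared with 503 of all 12704 (3.96%). A gene chosen for being low in either set reaches such a count more easily, so neither share is like with like. In a limma fit over all 16 libraries and 14319 genes, 947 genes were higher (6.61%) and 737 lower (5.15%) in Treg than in Tconv over both genotypes at an adjusted p under 0.05. Of the 172 genes 61 were higher and 6 lower in Treg, and of the 133 genes 8 were higher and 9 lower. Without the 3 Il5-high libraries these counts were 81 and 2, and 3 and 17, beside 896 higher and 605 lower of 13950 genes. The 172 genes were chosen as low and the 133 as high in the 6 Tconv libraries left there, which favours these counts. With 1 library left out, 54 to 71 of the 172 were higher and 6 to 11 lower, the 11 without Tconv WT 4. Of the 133, 5 to 9 were then higher and 3 to 12 lower, the 3 without Tconv WT 4 and the 12 without Tconv KO 3. Except in the fit without the 3 Il5-high libraries, the Tconv side of that comparison includes them. In no fit are the groups separate from the ones described above.

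Il1rl1 read 12534, 1725 and 14889 in Treg WT 1 to 3 and 10916, 10742, 12704 and 10798 in Treg KO 1 to 4. Every Treg library was above every Il5-low Tconv library and Treg WT 2 alone was inside the range of the Il5-high ones. The limma difference, Treg minus Tconv, was 5.00 (SE 0.80, adjusted p = 0.000217). Pparg read 269.9 to 610.1 in Treg, median 455.5, which overlaps the Il5-high libraries at 316.4 to 485.1. Its limma difference was 3.45 (SE 0.96, adjusted p = 0.0222), and the call was lost without Treg WT 1 (adjusted p = 0.0515) and with voom (adjusted p = 0.0535). Areg (Treg median 4187; difference 4.34, SE 0.58, adjusted p = 3.51e-05), Cxcl2 (4724; 6.39, SE 1.06, adjusted p = 0.000307), Calca (886.4; 4.79, SE 1.11, adjusted p = 0.00644) and Klrg1 (14302; 5.27, SE 0.55, adjusted p = 1.62e-06) were also higher in Treg by limma. For these genes the order of the levels was Il5-low Tconv, Il5-high Tconv, Treg, with the upper pair overlapping for Il1rl1, Pparg, Areg and Calca and not for Cxcl2 and Klrg1.

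Il4 and Tnfsf11 ran the other way. Il4 had no read in 5 of 7 Treg libraries and reached 9.44, and was lower in Treg by limma (difference -3.03, SE 0.80, adjusted p = 0.0164). Without the 3 Il5-high libraries that call was lost (adjusted p = 0.115). Tnfsf11 read 26.3 to 302.1 in Treg and was lower there (difference -2.06, SE 0.44, adjusted p = 0.00356), as was Hk2, outside the cytokines (difference -2.69, SE 0.67, adjusted p = 0.0102). Csf2 was not called: it read 16.4 to 314.4 in Treg, median 39.3, with Treg KO 1 alone in the range of the Il5-high libraries. Plaur, the urokinase receptor, noticed afterwards, was not called either, at 713.4, 2567 and 1202 in the Il5-high and 39.6 to 220.4 in the Il5-low libraries and 67.5 to 873.3 in Treg. Of the 172 genes, 33 had all 7 Treg libraries below the lowest Il5-high library, a count that the choice of genes high in those libraries favours. Fkbpl, Lypd6b and Sowahc completed the 6 that limma called lower in Treg. Without the 3 Il5-high libraries, 2 of the 172 were called lower. Tnfsf11 kept its call there, so most of Hk2, Fkbpl, Lypd6b and Sowahc lost theirs.

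**Figure D5:**
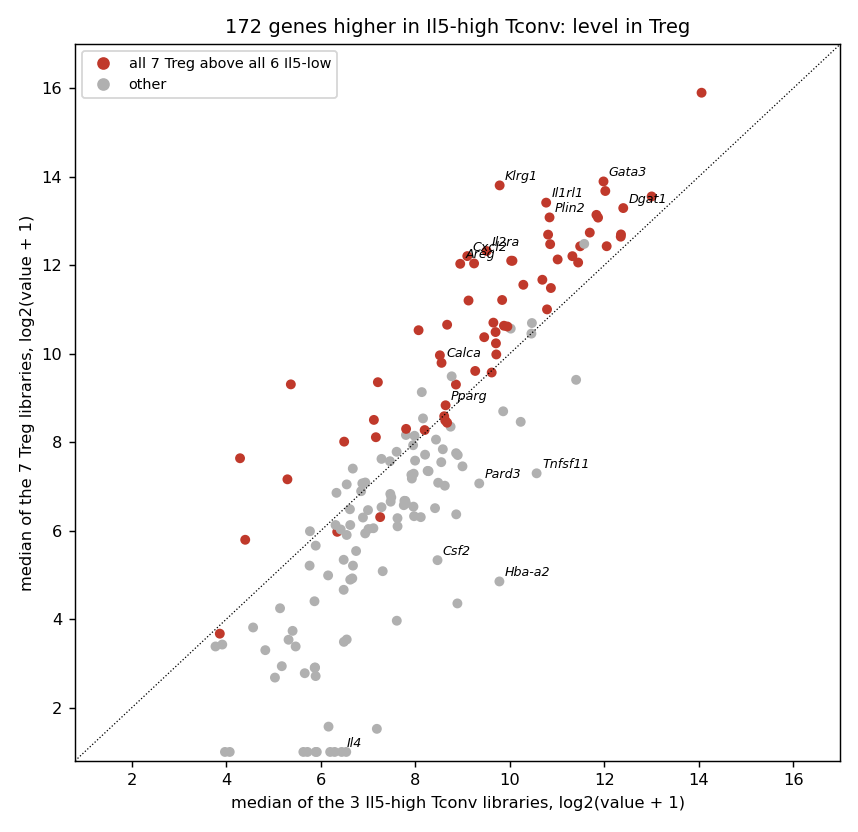
Each point is 1 of the 172 genes higher in the Il5-high Tconv libraries, by the median of those 3 libraries (horizontal) and of the 7 Treg libraries (vertical), both as log2(value + 1); red, the 63 genes for which all 7 Treg libraries exceed all 6 Il5-low libraries; the dotted line marks equal levels. Il1rl1, Klrg1 and Plin2 lie above the line, Il4, Csf2 and Tnfsf11 below it.

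Il5 itself differed among the Treg libraries. It read 33.9, 1 and 69.4 in Treg WT 1 to 3 and 177.0, 166.9, 110.0 and 171.3 in Treg KO 1 to 4, so every KO library was above every WT library. The mean of log2(value + 1) was 4.09 in WT and 7.27 in KO, a difference of 3.19, and an exact 2-sided permutation test, chosen after the values were seen, gave p = 0.0571, the smallest that 3 against 4 libraries allow. All 7 lay below the 3 Il5-high Tconv libraries. Treg minus Tconv over both genotypes, Il5 had a difference of 0.36 (SE 1.28, adjusted p = 0.912 by limma). The Treg range, 1 to 177.0, held all 6 Il5-low Tconv libraries and none of the Il5-high ones.

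Both genotypes hold Il5-high and Il5-low libraries, and genotype was compared as the study's own contrast. Comparing KO with WT Tconv, limma called 0 of 14319 genes (0%), with 781 at an unadjusted p under 0.05, and 0 with voom, with 1311 at an unadjusted p under 0.05. The difference, KO minus WT, was 0.34 for Il5 (SE 1.69, adjusted p = 0.996 by limma), -0.67 for Il1rl1 (SE 1.06, adjusted p = 0.983), -0.91 for Pparg (SE 1.27, adjusted p = 0.976) and -0.73 for Arg1 (SE 1.57, adjusted p = 0.993). A p that misses the threshold does not show that the genotypes are alike.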

How the data were processed

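RNA was sequenced from sorted VAT Treg and Tconv. Per the labels' protocols, 10 ng of RNA per library went through SMART-seq2, which marks no strand, and NextSeq base calls were converted with bcl2fastq2 2.20. Tools listed without roles in the submitters' processing notes are kallisto 0.44, CASAVA 1.8, DESeq2, Partek 6.6 and R 3.3.1, with build mm10. No source used here gives the annotation behind the counts. The authors deposited 1 table of a signal for 19540 genes: read counts divided by 1 size factor per library, plus 1, as its values show. The spacing of low values showed what 1 read is worth, and 100% of values under 1000 reads came out whole within 0.1 read. These steps gave the read totals, and floors of 3 reads cover counting error only. Coordinates are from GENCODE M21, matched by symbol for 98.4% of the table.

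Values were used as log2(value + 1), so differences are too small for low genes. A value of 10 in at least 3 Tconv libraries was required for the description of the Il5 division, which has no test. For genotype and cell type, limma 3.58.1 (R 4.3.3, trended variance prior) was fitted to all 16 libraries in 4 groups with 1 shared spread, on genes that reached 10 in 3 libraries of any kind. Adjusted p is Benjamini-Hochberg over all genes of a comparison, 2-sided, with a threshold of 0.05. Scripts ran in Python 3.11.15 and were tested on simulated data. Same-numbered libraries did not deviate together, so numbers were not taken as pairs.

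The named genes were the 4 markers of the set, the 15 largest differences upward and 10 downward among genes apart whose higher group had a mean of at least 50, members of the described lists that were apart or of highest level, and the top markers of other cells. Genes outside this rule are named as such, or stand as counterparts of a described list. The members and lists were chosen with earlier results of these data known. Alternatives covered pseudocount, filter, scaling, fold minimum, depth of Tconv KO 3, the test and each library. 1 gene of the innate lymphoid list is not reported here.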

Additional observations from a re-analysis of the deposited data

Results flagged for a closer look

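In groups of 4 or 5 libraries, a sample was set aside for a closer look when its gap to the next one was large against the group's range; chance gives this in about 1 in 20 groups. Tconv KO 3 met this among the 5 Tconv KO libraries for reads (56.7 M against 5.90 to 9.26 M), Il5 (940.4 against 1 to 52.4), Il1rl1 (2548 against 72.8 to 190.1), Pparg (398.5 against 4.99 to 36.3) and Arg1 (286.0 against 1 to 16.8). It also did for the summed type 2 innate lymphoid cell markers (20058 against 6603 to 7666) and the summed mast cell, basophil and eosinophil markers (140.2 against 1.78 to 38.9). Il5 chose this library, so these gene values describe it. Arg1 stood out in Tconv WT 3 among the WT libraries (861.5 against 1 to 16.5), as did its red cell and platelet sum (160144 against 140.0 to 1618), and the neutrophil sum stood out in Tconv WT 1 (19351 against 896.7 to 1377). In Treg KO, Il5 was lowest in KO 3 (110.0 against 166.9 to 177.0), Il1rl1 was highest in the same library (12704 against 10742 to 10916), and the red cell sum was highest in KO 1 (1365 against 50.6 to 156.7).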

How the results depend on the processing

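The 172 higher and 133 lower genes became 74 and 68 with a 4-fold minimum and 318 and 226 with no minimum. A filter at 50 left 84 lower genes. Leaving out 1 library at a time gave 199 to 369 higher and 147 to 439 lower genes, since fewer libraries overlap less often, and kept 144 to 171 of the 172. Each Il5-high library alone against the 6 Il5-low gave 1081 higher and 1009 lower genes in Tconv WT 1, 1150 and 1593 in WT 3, and 1194 and 1149 in KO 3; this was chosen after seeing the data. Thinning Tconv KO 3 to 7.46 M reads kept 169 and 130 genes, and quantile scaling 155 and 106. Arg1 did not overlap with quantile scaling, without Tconv WT 1 or without Tconv KO 1.

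Treg minus Tconv called 1684 genes, 1414 to 1737 with a library left out, and genotype 0 in every fit. Pparg lost its Treg call with voom (adjusted p = 0.0535 by limma). Voom, also chosen afterwards, turned the KO minus WT difference in Tconv for Il1rl1 (0.11), Pparg (0.26) and Arg1 (0.23), and Treg minus Tconv for Il5 (-0.84) and Csf2 (-0.56). Without the 3 Il5-high libraries Arg1 turned to 1.14. Leaving out 1 library turned KO minus WT for Il5 (-1.04 without WT 2, -0.83 without WT 4, -0.75 without KO 3; range -1.04 to 1.70), Il1rl1 (0.05 without WT 1, 0.10 without WT 3; range -1.91 to 0.10), Pparg (0.16 without WT 3; range -2.48 to 0.16) and Arg1 (1.07 without WT 3; range -1.86 to 1.07). It turned Treg minus Tconv for Il5 (-0.16, -0.34, -0.23 and -0.21; range -0.34 to 1.13), Csf2 (-0.55, -0.20 and -0.09; range -0.55 to 0.73) and Arg1 (0.18; range -1.48 to 0.18). None of these differences was called, and the cause was not tested.

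Replicate numbers gave correlations of deviations from -0.02 to 0.08, so they were not taken as pairs. With the replicate as a block, Treg minus Tconv called 1458 genes and genotype 0, 10 of the 172 were lower in Treg, 9 and 3 of the 133 were higher and lower, and Il5 turned to -0.79 in Treg minus Tconv. The planned edgeR and DESeq2 fits and TMM scaling were left out: the deposited table is not one of counts, and voom on the reads recovered from its steps took their place. No value exists with all 3 Il5-high libraries left out of the Il5 division. Genes under about 7 in the shallowest library are near its floor, and with 3 libraries on 1 side the description cannot separate what is shared by those 3 from what is particular to each.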

Other observations

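In Treg WT 2, Il1rl1 was at 1725 against 12534 and 14889 in Treg WT 1 and WT 3, Nmur1 at 7.98 against 374.3 and 177.4, and Il5 had no read. Tconv WT 2 had the lowest Il1rl1 (25.4) of all 16 libraries and no read of Il5 or Pparg. Tconv WT 1 and WT 3, with the same numbers as the other Treg WT libraries, were Il5-high. The labels do not say whether equal numbers mark the same animal. In KO the numbers do not run in parallel: Treg KO 3 had the lowest Il5 of its group (110.0) and Tconv KO 3 the highest (940.4).

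Pard3, a cell polarity gene, was among the 172 higher genes, at 653.4, 1030 and 636.1 against 19.3 to 301.8, and ranged from 1 to 626.3 in Treg. Fgl2, a secreted immunoregulatory protein gene, read 1183, 2429 and 1852 against 243.5 to 750.7, and 3670 to 7342 in Treg. Both were chosen after their values were seen.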
